A study of Mus musculus with 24 samples.

Results

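The pyruvate dehydrogenase complex and the enzymes that switch it on and off were followed in mouse liver as 10 genes: the kinases Pdk1, Pdk2, Pdk3 and Pdk4, the phosphatases Pdp1 and Pdp2, and the complex subunits Pdha1, Pdhb, Dlat and Pdhx. They were taken by gene name from the array's own annotation, with every probe of each, which gave 22 probes for 10 genes out of 37074 gene names on the array. Of these, 20 probes passed the filter on dim signals described with the processing, and each of the 10 genes kept at least 1 probe, against 21331 gene names with a kept probe in all.

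Livers came from 24 male C57Bl/6J mice that either expressed PPARα in hepatocytes (LWT) or did not (LKO), a reading of the genotype labels that rests on the series title. Each genotype was given CL316243, a β3-adrenergic receptor agonist, at 3 mg/kg by gavage (6 mice), or its vehicle alone, 0.5% carboxymethyl cellulose (6 mice). All mice were dosed at Zeitgeber time 10 h, were killed at 16 h (lights went on at time 0) and ate a standard diet freely, so the vehicle and the handling are common to all 4 groups. The Cre driver, the deleted part of Ppara and the age of the mice are not given in the sources used here.

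Pyruvate dehydrogenase turns pyruvate into acetyl-CoA inside mitochondria and so commits carbohydrate carbon to oxidation or fat synthesis. Kinases of the Pdk family phosphorylate its E1 alpha subunit and stop the enzyme, and the Pdp phosphatases remove the phosphate and restart it. Pdk2 is a widely expressed kinase. In liver, Pdk4 is raised in fasting, when fatty acids are burned in place of glucose, and it is a known target gene of PPARα.

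Both Pdk4 and Pdp2, one gene on each side of the switch, rose with CL316243 in LWT livers by an amount that depended on the genotype, and 1 of the 2 Pdp2 probes gave no such result. The Pdp2 probe that rose was chosen after the values were seen. Pdp1, the other phosphatase, also passed the interaction test, but it fell in LWT (-0.54) and rose in LKO (0.55). A stretch of the Pdk4 probe and of both Pdp2 probes is printed so that the 2 Pdp2 probes can be compared. In the Pdp2 bright probe, capitals mark a stretch of 20 bases that also occurs, on either strand, in 74 probes of other genes on the array, and the other letters are in lower case.
Pdk4 probe: tatgaacccatgggagactttaaactcttg
Pdp2 second probe: gtcagcacttcagccatcgtcggcaaggct
Pdp2 bright probe: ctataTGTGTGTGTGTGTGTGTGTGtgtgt
The first and second of these are bases 1 to 30 of a 60-base probe, and the third is bases 19 to 48. In build mm9, as the array's annotation gives it, the Pdk4 probe lies at chr6:5433441-5433500, the second Pdp2 probe at chr8:107120490-107120549 and the bright Pdp2 probe at chr8:107119568-107119627. That annotation places probes on transcripts but does not name exons or untranslated regions.

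The upstream sequences of the same 2 genes are shown because their levels moved so differently between genotypes. They are RefSeq promoters of build GRCm38.p6, a later build than the probes', and span 250 bases before to 50 bases after the transcription start, at chr6:5496229-5496528 on the minus strand for Pdk4 and chr8:104591222-104591521 on the plus strand for Pdp2. Capitals mark CCAAT, written ATTGG where it lies on the opposite strand.
Pdk4 promoter: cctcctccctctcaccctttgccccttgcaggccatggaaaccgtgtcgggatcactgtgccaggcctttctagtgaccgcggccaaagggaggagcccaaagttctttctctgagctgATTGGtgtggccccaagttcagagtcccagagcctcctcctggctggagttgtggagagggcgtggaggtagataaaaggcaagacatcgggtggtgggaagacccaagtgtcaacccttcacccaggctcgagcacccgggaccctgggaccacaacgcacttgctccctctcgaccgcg
Pdp2 promoter: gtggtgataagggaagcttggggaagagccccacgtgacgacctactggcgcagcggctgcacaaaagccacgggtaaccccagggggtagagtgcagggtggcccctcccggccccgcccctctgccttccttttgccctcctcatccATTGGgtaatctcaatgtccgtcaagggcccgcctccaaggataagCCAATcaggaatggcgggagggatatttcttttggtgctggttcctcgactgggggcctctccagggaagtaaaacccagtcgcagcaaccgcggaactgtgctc
Promoters of 9 members, all but Pdp1, were in the table, some with more than 1 start. Both of their strands were searched for a few motifs. These were the nuclear receptor motif AGGTCA, 2 copies of it 1 base apart (which overlap the single motif), the FoxO motif TGTTTAC, the cAMP response motif TGACGT, and the CCAAT box. The last occurred in at least 1 promoter of 6 of the 9 members, which had 11 promoters between them. It occurred in 37.4% of all 32841 mouse promoters of this length, a share per promoter and not per gene. TGACGT occurred in the promoter of 1 member, Pdhb, and in 7.51% of all promoters. The other motifs were not among these letters for any of the 9 members. In all promoters the shares were 16.3% for AGGTCA, 3.65% for TGTTTAC and 0.0396% for the pair. A match is a string of letters and not a measured binding site.

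Signals served in place of depth. Each array had 26985 to 34202 probes well above background and a 75th percentile of intensity of 397.4 to 577.7, and no 2 arrays were closer than r = 0.9929. Both Ppara probes were lower in all 12 LKO livers than in any of the 12 LWT livers. The annotation places the brighter probe at base 2273 of the transcript and the other at base 7356. The brighter probe ran from 3.06 to 5.18 in LKO and from 5.46 to 6.42 in LWT. A probe outside the deleted part does not test the deletion, and where these probes lie relative to it is not known here. All 8 hepatocyte markers were well above background, and their summed level was between 11.9 and 12.3 in all groups. With CL316243 Hnf4a was called higher in LWT (0.30) and LKO (0.33). In LKO Apoa1 was called lower (-0.255) and Apob higher (0.215), and the other hepatocyte markers were not called in either genotype. Levels are log2 signals relative to the 75th percentile of the same array, and each probe has its own brightness, so levels are compared between groups for 1 probe and never between genes.

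Pdk4, a kinase that fasting induces, showed the largest change of the 10 genes. Its level in LWT livers was -1.04 at the lowest, -0.53 at the median and 0.44 at the highest under vehicle, and 5.22, 6.48 and 7.08 under CL316243. In LKO livers it was 1.03, 1.62 and 2.0 under vehicle, and the 6 mice given CL316243 stood at 2.30, 2.45, 2.77, 4.42, 4.72 and 5.14. No 2 of the 4 groups overlapped, and the highest treated LKO mouse lay just under the lowest treated LWT mouse. The order of the group means was LWT vehicle, LKO vehicle, LKO with CL316243 and LWT with CL316243.

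**Figure D1:**
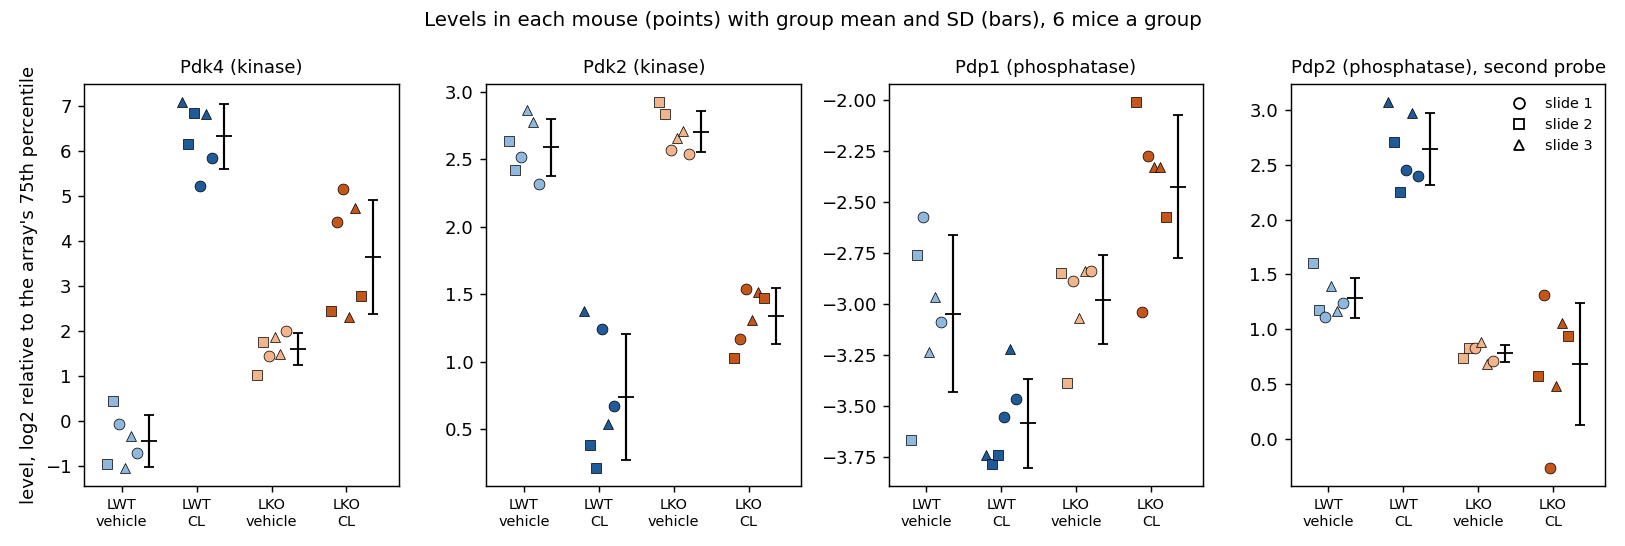
Level of 4 genes in each mouse on the vertical axis (log2 signal relative to the 75th percentile of the array) for the 4 groups on the horizontal axis. Points are mice, their shape is the slide, and bars give the mean and SD of 6 mice. Pdk4 is separated between every pair of groups, and treated LKO mice spread from 2.30 to 5.14.

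The rise of Pdk4 with CL316243 was 6.77 on the log2 scale in LWT (SE 0.44, n = 6 against 6, adjusted p = 1.63e-10), which is 109-fold. In LKO it was 2.04 (SE 0.44, adjusted p = 0.00083), or 4.11-fold. The LKO rise was smaller than the LWT rise by a difference of -4.73 (SE 0.62, adjusted p = 3.33e-05, the test of the interaction). Compared with LWT, Pdk4 in LKO was higher under vehicle, by 2.05 (SE 0.44, adjusted p = 0.0177), and lower under CL316243, by -2.69 (SE 0.44, adjusted p = 0.000123). The direction was the same on all 3 slides in each comparison, but the last difference was -0.74 on slide 1 against -3.89 on slide 2 and -3.44 on slide 3. The call under vehicle was lost without LWT vehicle mouse 1 (adjusted p = 0.0522) or mouse 4 (0.0501), with a range over the mice left out of 0.0144 to 0.0522.

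Pdk2, a widely expressed kinase, went the other way in both genotypes. Its level was 2.31 to 2.86 in LWT under vehicle (median 2.58) and 0.22 to 1.38 under CL316243 (median 0.61). In LKO it was 2.54 to 2.92 under vehicle (median 2.68) and 1.03 to 1.54 under CL316243 (median 1.39). Every treated mouse lay below every vehicle mouse, whatever the genotype. Pdk2 fell by 1.85 in LWT (SE 0.16, adjusted p = 1.36e-08) and by 1.37 in LKO (SE 0.16, adjusted p = 1.55e-06). The difference between these falls was 0.48 (95% confidence interval 0.01 to 0.96, adjusted p = 0.246), so it did not pass the test.

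Under CL316243, Pdk2 was higher in LKO than in LWT by 0.60 (SE 0.16, adjusted p = 0.0123), although the groups overlapped. That call was lost when only the 12 arrays compared were fitted (adjusted p = 0.0781; range over all the processing alternatives 0.00157 to 0.0781). Under vehicle the genotypes differed by 0.12 (95% confidence interval -0.22 to 0.45, adjusted p = 0.959). Over all 24 arrays the levels of Pdk2 and Pdk4 had a Pearson r of -0.855, but only -0.026 after each group's mean was removed, a description of points that share the same 4 groups.

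Pdk1, the kinase known as a target of hypoxia signalling, had 5 kept probes. By the brightest, its level was 3.36 to 4.30 in LWT under vehicle (median 3.91), 2.82 to 3.96 with CL316243 (3.47), 3.35 to 4.64 in LKO under vehicle (3.96) and 2.52 to 4.24 with CL316243 (3.11). The groups overlapped in both genotypes. The change was -0.73 in LKO (SE 0.26, adjusted p = 0.0278) and -0.43 in LWT (SE 0.26, adjusted p = 0.209), and the difference between them, -0.30 (95% confidence interval -1.06 to 0.46), did not pass the test. Of its 4 other probes 3 were also called lower in LKO, with changes of -0.62, -1.04 and -1.41, and 1 was not, at -0.15 (adjusted p = 0.171). The LKO call of the brightest probe was lost without LKO vehicle mouse 1 (0.0578), 2 (0.0779) or 5 (0.0519), or treated LKO mouse 3 (0.0791) or 5 (0.0613), with a range of adjusted p over the mice left out of 0.0035 to 0.0791. It was also lost with no filter on dim probes (0.0545) and in a fit of only the 12 arrays compared (0.0618), in a range of 0.0117 to 0.0618 over the processing alternatives.

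Pdk3 was near the limit of detection: its kept probe was well above background on 3 or 4 of 6 arrays in each group, and its second probe on 0 or 1 of 6. By the kept probe, group medians were -4.53 and -4.08 in LWT and -4.40 and -4.30 in LKO, without and with CL316243. Its change was 0.95 in LWT (95% confidence interval -0.20 to 2.11) and 0.37 in LKO (-0.79 to 1.52), and neither passed the test (adjusted p = 0.192 and 0.63). One treated LWT mouse, replicate 6, stood at -0.60 while the next in its group stood at -3.82, and without that mouse the LWT change was 0.32 (adjusted p = 0.56; range over mice 0.107 to 0.56).

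**Figure D2:**
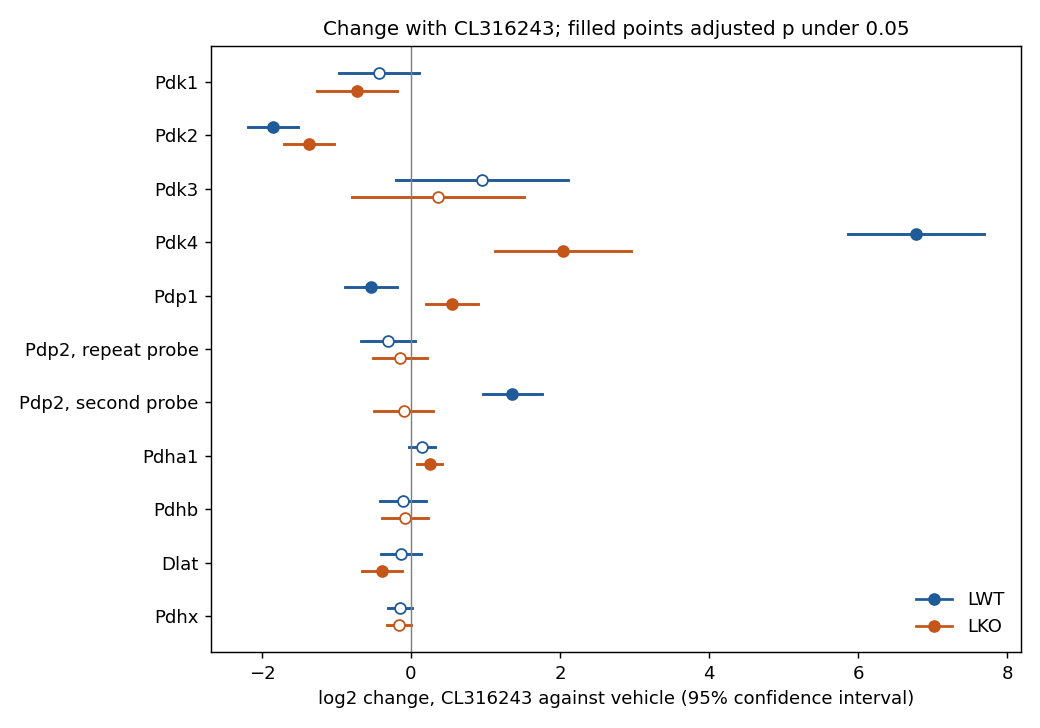
Change with CL316243 against vehicle for each gene (log2 scale, horizontal axis; genes on the vertical axis), with 95% confidence intervals, in LWT (blue) and LKO (orange). Filled points passed an adjusted p of 0.05. Pdk4 reached 6.77 in LWT, Pdk2 fell in both genotypes, Pdp1 had opposite signs, and the 2 Pdp2 probes disagreed.

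Pdp2, a phosphatase of pyruvate dehydrogenase known to respond to insulin and to nutritional state, had 2 probes that disagreed (r = -0.311 over 24 arrays). The bright probe has its mean level in the 99.04th percentile of kept probes, and the rule that a gene is represented by its brightest probe chose it. It holds a run of alternating T and G, shown in capitals at the start of these results, and shares at least 20 bases with 48 probes of other genes on the same strand and 32 on the opposite strand. No other member probe shares such a stretch with another gene, and 0.524% of all kept probes share one with 10 or more other genes.

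The 48 probes of other genes that share it on the same strand were all kept, and 47 of them were in the brightest 5% of probes. Their r with the bright Pdp2 probe over the 24 arrays had a median of 0.991 and ran from 0.746 to 0.998, against a median of 0.002 for all kept probes. Their median r with the second Pdp2 probe was -0.322. The signal of the bright probe thus followed that of other genes' probes with the same repeat, and it cannot be assigned to Pdp2. It was not called in any comparison (changes -0.31 in LWT and -0.14 in LKO). Its mean with the second probe would give 0.53 in LWT (adjusted p = 0.0121).

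**Figure D3:**
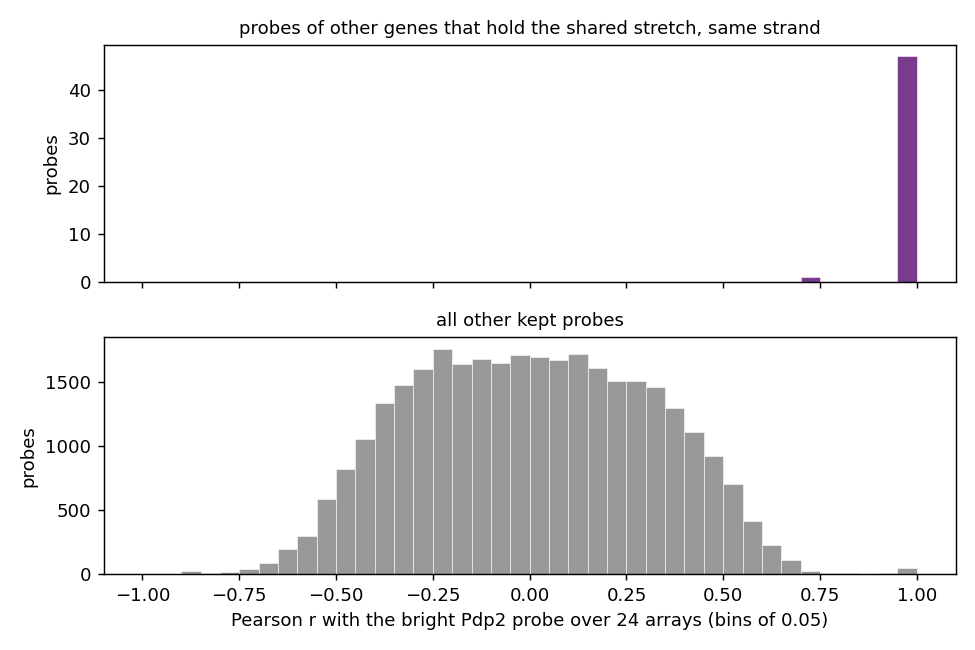
Number of probes (vertical axis) by their Pearson r with the bright Pdp2 probe over 24 arrays (horizontal axis, bins of 0.05). The upper panel holds the 48 probes of other genes that share 20 bases or more with it on the same strand, and 47 of them exceed 0.9; the lower panel holds the other kept probes, of which 55 do.

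The second Pdp2 probe, which shares no 20-base stretch with another gene, gave a pattern by genotype. Its level in LWT was 1.11 to 1.6 under vehicle (median 1.21) and 2.25 to 3.08 with CL316243 (median 2.58). In LKO it was 0.68 to 0.88 under vehicle (median 0.78) and -0.26 to 1.31 with CL316243 (median 0.75). All 6 treated LWT mice lay above the other 18, and under vehicle every LKO mouse lay below every LWT mouse.

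By this probe Pdp2 rose by 1.36 in LWT (SE 0.19, 2.57-fold, adjusted p = 8.06e-06), and in LKO the difference was -0.10 (95% confidence interval -0.49 to 0.30, adjusted p = 0.712). The interaction was -1.46 (SE 0.27, adjusted p = 0.00142). Under CL316243 LKO was lower than LWT by -1.96 (SE 0.19, adjusted p = 7.04e-08), and this was between -2.26 and -1.73 within the 3 slides. Under vehicle the LKO difference of -0.50 (SE 0.19) had an adjusted p of 0.339 despite the lack of overlap; it passed with array weights (0.0423) and in a fit of only the 12 arrays (0.012), in a range of 0.012 to 0.627. The use of this probe was chosen after the values and sequences were seen.

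Pdp1, the calcium-stimulated phosphatase, moved in opposite directions in the 2 genotypes. Its level in LWT was -3.67 to -2.57 under vehicle (median -3.03) and -3.79 to -3.22 with CL316243 (median -3.65). In LKO it was -3.39 to -2.84 under vehicle (median -2.87) and -3.04 to -2.01 with CL316243 (median -2.33). Within each genotype the vehicle and treated mice overlapped, but under CL316243 every LKO mouse lay above every LWT mouse.

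Pdp1 fell by 0.54 in LWT (SE 0.17, adjusted p = 0.0155) and rose by 0.55 in LKO (SE 0.17, adjusted p = 0.0119). The difference between them was 1.09 (SE 0.24, adjusted p = 0.00704), and under CL316243 LKO exceeded LWT by 1.16 (SE 0.17, 2.24-fold, adjusted p = 2.98e-05). Under vehicle the genotypes differed by 0.07 (95% confidence interval -0.28 to 0.42, adjusted p = 0.988). The probe was dim, and with normexp background correction the changes shrank to -0.21 in LWT (adjusted p = 0.0723, no longer called), 0.38 in LKO (0.00177), 0.58 for the interaction (0.00539) and 0.60 between genotypes under CL316243 (3.28e-05). Array weights also ended the LWT call (0.0516), in a range of 0.0135 to 0.0723 over all the processing alternatives. A second Pdp1 probe was well above background on 1 to 3 of 6 arrays in each group and was not tested; its group means differed by 0.14 with CL316243 in LWT and by 0.45 in LKO, and LKO exceeded LWT by 0.94 under vehicle and by 1.24 under CL316243.

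**Figure D4:**
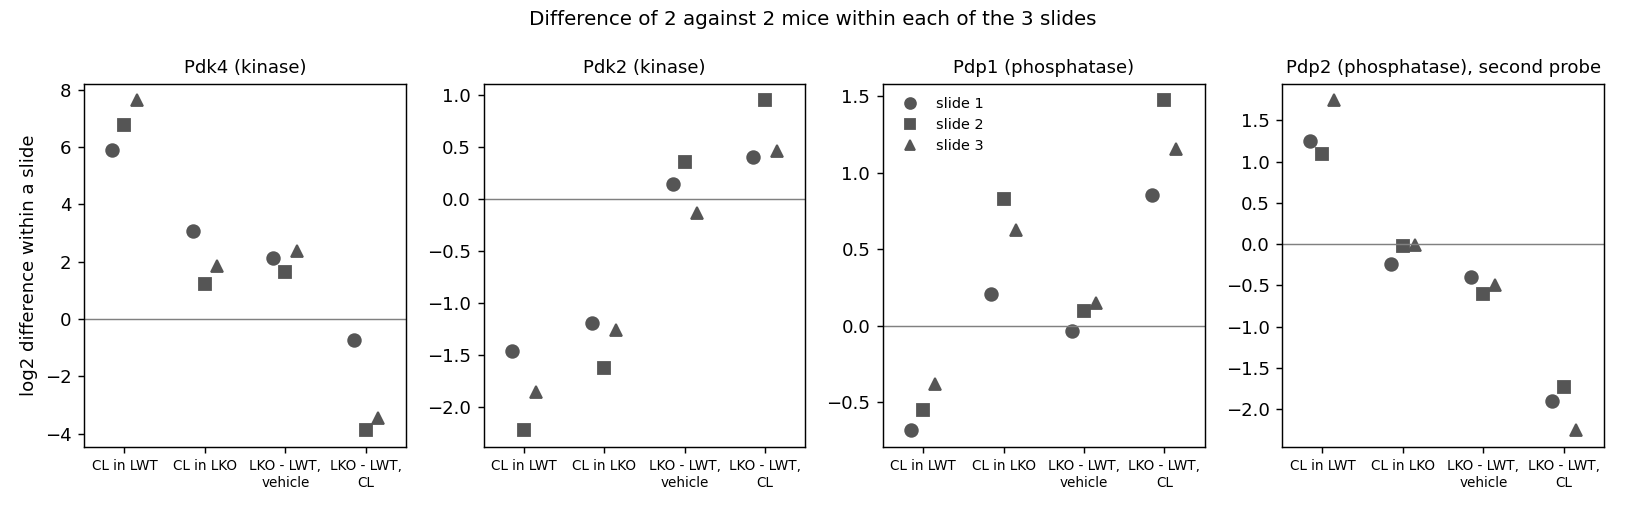
Log2 difference between 2 mice of one group and 2 of the other within each of the 3 slides (vertical axis) for 4 comparisons (horizontal axis) and 4 genes. The rise of Pdk4 in LWT was 5.92 to 7.64, the fall of Pdk2 was present on every slide in both genotypes, and Pdp1 had opposite signs in LWT and LKO on every slide.

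By their brightest probes, the largest change with CL316243 among the subunits of the complex was -0.39, for Dlat in LKO. A second Dlat probe fell by more in both genotypes. Pdha1, the E1 alpha subunit that the kinases phosphorylate, had a level of 2.99 to 3.45 in LKO under vehicle and 3.39 to 3.72 with CL316243, and its change of 0.25 there was called (SE 0.08, adjusted p = 0.0175), while the change of 0.15 in LWT was not (adjusted p = 0.168). Its second probe changed by 0.23 in LKO (adjusted p = 0.224). The LKO call was lost without LKO vehicle mouse 4 (0.0533) or 6 (0.0502) or treated LKO mouse 2 (0.0518), in a range over mice of 0.00923 to 0.0533, and also with only the 12 arrays compared (0.0707) or the mean of both probes (0.0612), in a range of 0.0111 to 0.0707.

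Dlat, the E2 subunit that carries the acetyl group on lipoate, was lower with CL316243. Its brightest probe had a median of 0.43 and 0.32 in LWT and of 0.52 and 0.01 in LKO, without and with CL316243, and the groups overlapped. It changed by -0.39 in LKO (SE 0.13, adjusted p = 0.022) and by -0.13 in LWT (adjusted p = 0.465). Its second probe fell in both, by 0.68 in LWT (adjusted p = 0.00117) and by 0.60 in LKO (adjusted p = 0.0031), and the mean of the probes was called in LWT at -0.40 (adjusted p = 0.0117; range over the processing alternatives 0.0117 to 0.634). The LKO call of the brightest probe was lost without LKO vehicle mouse 2 (0.059) or 5 (0.055) or treated LKO mouse 6 (0.0533), in a range of 0.00508 to 0.059, and with only the 12 arrays compared (0.0504), in a range of 0.00266 to 0.0504.

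Pdhb, the E1 beta subunit, and Pdhx, which anchors the E3 enzyme, were called in no comparison by any of their probes. Pdhb changed by -0.10 in LWT (95% confidence interval -0.41 to 0.21) and by -0.08 in LKO (-0.39 to 0.23). Pdhx changed by -0.15 in LWT (-0.31 to 0.01, adjusted p = 0.144) and by -0.17 in LKO (-0.33 to -0.01, adjusted p = 0.0919); without treated LWT mouse 1 the LWT change was called at -0.21 (adjusted p = 0.0242, range over mice 0.0242 to 0.334).

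By their brightest probes, Pdk1, Pdk3, Pdha1, Pdhb, Dlat, Pdhx and Pdp2 were not called between genotypes or for the interaction. LKO minus LWT under vehicle and then under CL316243 was 0.08 and -0.23 for Pdk1, 0.11 and -0.48 for Pdk3, -0.005 and 0.10 for Pdha1, -0.08 and -0.06 for Pdhb, 0.01 and -0.24 for Dlat, and -0.15 and -0.17 for Pdhx. The interaction was -0.59 for Pdk3, 0.10 for Pdha1, 0.03 for Pdhb, -0.25 for Dlat and -0.02 for Pdhx. The bright Pdp2 probe gave 0.195 under vehicle, 0.36 under CL316243 and 0.16 for the interaction. The lowest adjusted p among these was 0.16, for Pdhx under CL316243, where the 95% confidence interval was -0.33 to -0.01.

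Counted over the 10 genes by their brightest probe, 1 was called higher and 2 lower with CL316243 in LWT, where 19.1% of all 32037 kept probes were called higher and 18.5% lower. In LKO 3 were called higher and 3 lower, against 21.1% and 19.9% of all probes. For the interaction 1 was called higher and 1 lower, against 2.18% and 3.77%. Between genotypes 1 was called higher in LKO and 0 lower under vehicle (0 also at an unadjusted limma p under 0.05), against 0.434% and 0.677%, and 2 higher and 1 lower under CL316243, against 7.22% and 8.16%. In LWT and LKO the members' counts with CL316243 were near these shares. The median change of the 10 was -0.14 in LWT and -0.11 in LKO, beside 0.02 and 0.02 for all probes. With Pdp2 read by its second probe, the numbers called were 4 in LWT, 6 in LKO, 3 for the interaction, 1 under vehicle and 4 under CL316243.

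Around the complex stand the enzymes and carriers that supply its lipoate and thiamine cofactors. The counts of this list and the next ones stand beside shares of all kept probes. With CL316243 these were 19.1% higher and 18.5% lower in LWT, and 21.1% and 19.9% in LKO. No list was tested as a set. Of 13 listed genes 12 were tested; 6 fell, 1 rose and 5 were not called in LWT, and 9 fell, 1 rose and 2 were not called in LKO, with list medians of -0.16 and -0.32. Lias, the lipoate synthase, changed by -0.39 in each genotype, Lipt1, a lipoyl transferase, by -0.60 in LWT and -0.75 in LKO, and Slc19a2, a thiamine carrier, by -1.28 and -0.82. Lipt2, the octanoyl transferase of lipoate synthesis, changed differently by genotype (interaction -1.03, adjusted p = 0.0221). The gene that rose was Iba57, an iron-sulphur cluster assembly factor, at 1.55 in LWT and 1.33 in LKO, and under vehicle it was lower in LKO by -0.99 (adjusted p = 1.93e-05). Of the other complex components, Pdpr, a regulatory subunit of the phosphatase, changed by -0.24 in LWT (adjusted p = 0.0467), Dld, the shared E3 enzyme, was called in no comparison, and Pdha2 was not kept.

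Genes that supply pyruvate or take it elsewhere numbered 15, of which 14 were tested. In LWT 6 rose and 0 fell by limma (1 was lower at an unadjusted p under 0.05), and in LKO 6 rose and 2 fell. The transporter Slc16a1, which carries lactate and pyruvate, rose by 2.14 in LWT and 0.72 in LKO (interaction -1.42, adjusted p = 0.00407). The lactate dehydrogenase Ldha rose by 0.84 and 0.68, and the malic enzyme Me1 by 1.2 in both genotypes. In LKO the alanine transaminase Gpt fell by 0.50 and the mitochondrial pyruvate carrier Mpc1 by 0.25. Of the 10 genes of acetyl-CoA entry and use, 5 rose and 1 fell in LWT, and 1 rose and 1 fell in LKO. In LWT Cs, the citrate synthase, rose by 0.61, while Acss1 fell by 0.56; in LKO Cs rose by 0.41 and Acat1 fell by 0.39. Crat, which moves acetyl groups onto carnitine, rose by 2.80 in LWT (adjusted p = 3.91e-06) and differed by genotype (interaction -2.77, adjusted p = 0.00177), as did Acat1, the acetoacetyl-CoA thiolase (interaction -0.90).

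The related branched-chain and 2-oxoglutarate dehydrogenase complexes were listed with the kinase and phosphatase of the branched-chain complex. They gave 2 of 8 genes higher and 3 lower in LWT and 1 higher and 3 lower in LKO. Dbt, the E2 of the branched-chain complex, fell by 0.71 and 0.76, Bckdha, its E1 alpha, by 0.26 and 0.34, and Dhtkd1, an E1 of lysine breakdown, by 0.94 and 0.71. Ogdh, the E1 of the 2-oxoglutarate complex, rose by 0.28 and 0.43. The kinase Bckdk and the phosphatase Ppm1k, the counterparts of the Pdk and Pdp genes, were called in no comparison.

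Of 15 receptors and regulators reported for Pdk genes or the complex, 3 rose and 8 fell in each genotype. Of all kept probes 19.1% rose and 18.5% fell in LWT, and 21.1% and 19.9% in LKO. Hif1a, the hypoxia factor, rose by 1.02 in LWT and 0.77 in LKO, and Cebpb by 0.85 and 1.0. Ppara rose by 0.55 in LWT and fell by 0.69 in LKO (interaction -1.24, adjusted p = 0.0113), Pparg rose by 0.55 in LKO (interaction 0.91, adjusted p = 0.0376), and Nr0b2 fell by 1.36 in LWT. Foxo3 fell by 1.38 and 0.68 (interaction 0.70, adjusted p = 0.02), the glucocorticoid receptor Nr3c1 by 0.71 and 0.36, and Esrra by 0.54 and 0.67. The coactivators went apart by genotype: Ppargc1a fell by 1.47 in LWT (interaction 2.09, adjusted p = 0.0265), and Ppargc1b fell by 1.83 in LKO (interaction -2.13, adjusted p = 0.0151). Under vehicle no regulator on the list was called between genotypes by its brightest probe (0 of 15 by limma, and 1 at an unadjusted p under 0.05), though the dimmer Ppara probe was (-0.92, adjusted p = 0.0188). Among 15 genes that respond to glucocorticoid or FoxO1 in liver, 8 rose and 1 fell in LWT and 6 rose and 1 fell in LKO. Cdkn1a rose by 4.89 and 3.31, Igfbp1 by 3.64 and 4.53 and Irs2 by 2.88 and 1.89, while Tsc22d3 fell by 1.33 and 1.2; 1 of the 15, Trib1, passed the interaction test (0.89, adjusted p = 0.0492).

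Between genotypes under CL316243, the numbers higher and lower in LKO were 1 and 4 of 12 cofactor genes, 0 and 4 of 14 pyruvate genes, 0 and 4 of 10 acetyl-CoA genes, 0 and 1 of 8 related dehydrogenase genes, 3 and 2 of 15 regulators, and 1 and 0 of 15 glucocorticoid or FoxO1 genes. Of all kept probes 7.22% were called higher and 8.16% lower. At an unadjusted limma p under 0.05 the counts of 0 stayed at 0, except that 1 of the last list was lower. Under vehicle 1 cofactor gene, 1 pyruvate gene and 1 acetyl-CoA gene were lower, none of the other lists was called, and at an unadjusted p 1 cofactor gene was higher and 1 regulator lower. Of all kept probes 0.434% were called higher and 0.677% lower in LKO under vehicle. Differences under CL316243 included those of Crat (-2.79), Ppargc1b (-2.20) and Ppara (-1.91) among the lower and Ppargc1a (1.66) and Pparg (1.12) among the higher.

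The genes whose levels were most like a member's were taken over 24 arrays from 13551 other kept genes with a RefSeq symbol (predicted and clone-named genes left out), the 4 groups being common to all points. For Pdk4 these were Synpo (r = 0.967, and 0.778 after removing group means), Hilpda (0.943 and 0.772), Gmfb (0.942 and 0.693), Dusp5 (0.936 and 0.547) and Enc1 (0.936 and 0.756). Hilpda, a lipid droplet protein, changed by 4.06 with CL316243 in LWT and 1.54 in LKO, and Synpo, an actin-binding protein, by 3.39 and 1.70. For Pdp1 they were Zdhhc8 (0.88 and 0.649), Cdkn1b (0.80 and 0.416), Mrgpra4 (0.79 and 0.513), Blnk (0.786 and 0.244) and C1ql3 (0.769 and 0.432), of which Mrgpra4 and C1ql3 were dim. For the second Pdp2 probe they were Abhd1 (0.966 and 0.788), Slc25a34 (0.943 and 0.70), Acot8 (0.94 and 0.394), Abhd6 (0.94 and 0.398) and Acaa2 (0.938 and 0.59); Acot8, a peroxisomal acyl-CoA thioesterase, changed by 1.39 in LWT and -0.03 in LKO.

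Some markers of other cells moved with CL316243 too, though not all members of a list moved alike. Of the endothelial markers, Lyve1 rose by 1.18 in LWT and 2.39 in LKO, Pecam1 rose in LWT (0.49) and Kdr fell in LKO (-0.56). Stab2, Clec4g and Cdh5 were not called in either genotype. Of the stellate cell markers, Dcn rose by 0.28 and 0.24, Ecm1 rose in LKO (0.27) and Lrat fell in LWT (-0.71). Reln, Pdgfrb and Des were not called in either genotype, and neither was any Kupffer cell marker. The summed level of the 5 kept adipocyte markers of 6 ran from 1.08 to 2.07 in LWT under vehicle and from -0.04 to 1.14 with CL316243, and from 1.22 to 2.0 and from 0.28 to 0.85 in LKO; 1 of the 5 was called, Adrb3, the gene of the β3 receptor itself, at -2.11 in LWT and -1.92 in LKO, while Lep, Plin1, Cfd and Retn were not called in either genotype. Adipoq was well above background on 6 of 24 arrays. The 6 kept neutrophil and lymphocyte markers of 7 had medians of 3.36 and 3.85 in LWT and of 3.34 and 3.79 in LKO, and 1 treated LKO liver reached 5.63; S100a8 (1.48 and 2.30) and S100a9 (1.44 and 2.25) rose in both genotypes and Ms4a1 fell (-1.45 and -1.67), while Ly6g was called lower in LWT (-0.38), and in LKO Ptprc was called lower (-0.38) and Cd3e higher (0.24). Cd79a was well above background on 0 arrays. The 6 cholangiocyte markers had medians of 2.40 and 2.97 in LWT and of 2.04 and 3.39 in LKO; Sox9 rose in both (1.47 and 2.18) and Spp1 in LKO (0.96), while Krt19, Krt7, Epcam and Cftr were not called in either. Of 6 muscle markers 3 were kept, with group medians between -2.09 and -1.58. Myh1 was well above background on 0 arrays. Of 6 pancreas markers 2 were kept. Their summed level in LWT was 4.565 to 5.078 under vehicle and 4.335 to 5.093 with CL316243. In LKO it was 5.049 to 5.319 and 4.579 to 5.001. The 2 went apart in LWT, where Amy2a5 was called higher with CL316243 (0.34) and Cela1 was not called (-0.29). The part of all these markers in the changes of the 10 genes was not tested. In whole liver fewer cells of a type and less RNA per cell cannot be told apart.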

How the data were processed

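Livers of 24 mice were hybridised to single-colour arrays, 8 on each of 3 slides, with 2 mice of every group on a slide. Per the file headers, the deposited intensity of each spot is a linear, background-subtracted value that the authors made with Agilent Feature Extraction (10.10.1.1). The deposited series table holds log2 values; it matched quantile-normalized log2 median signals to a median difference of 0.000254 over 31367 probes, and was used as an alternative. Here, outlier spots were dropped, spots of a probe averaged on the log2 scale, and each array's 75th percentile subtracted. The filter asked for a signal well above background in 4 or more of the 6 mice of some group and for 3 values in every group, and left 32037 of 56605 probes. Limma 3.58.1 (R 4.3.3) fitted 1 mean per group over all 24 arrays; Benjamini-Hochberg adjustment ran over all kept probes of each comparison, and a call is an adjusted p under 0.05. The fit was tested on simulated data. The median SE was 0.138 (interaction 0.195), and a change must be well above its SE to be called. Outside the interaction, the SE of the members' brightest probes ran from 0.077 for Pdhx to 0.557 for Pdk3.

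All 10 members are reported in each comparison by their brightest kept probe, with other probes beside it in part; from each list, up to 3 called genes per direction with the largest changes, and for members called for the interaction the 5 genes most correlated. A few list genes counted here are not reported by name. Some examples and genes not called were added after their values were seen. Members and lists were chosen with earlier results of these data known. Replicate numbers were not taken as pairs of mice. Of 36 same-numbered pairs, 8 correlated above 0.1 (-0.173 to 0.416). Pairs with different numbers were not compared, so whether the numbers pair mice was not settled. Probe sequences came from the array files and promoters from RefSeq (GRCm38.p6).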

Additional observations from a re-analysis of the deposited data

Results flagged for a closer look

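One value of 44 groups examined (11 probes in 4 groups of 6) lay far from the rest of its group by Dixon's test, where chance alone gives about 1 in 20: Pdk3 in treated LWT mouse 6, at -0.60 against -3.82 for the next mouse, a gap of 0.729 of the group's range (above the critical value for 6 samples). The change with CL316243 differed between genotypes for Pdk4 (interaction -4.73), for Pdp1 (1.09) and for the second Pdp2 probe (-1.46), each by the interaction test given with the results.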

How the results depend on the processing

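Besides the values given with the results, the changes of the 10 genes and of the second Pdp2 probe were recomputed under up to 13 processing alternatives (12 or fewer for the interaction, Pdk3 and the second Pdp2 probe) and with each mouse left out in turn. Of 689 values under the former, 673 kept their side of the threshold and, where called, their direction, 8 lost their call, 6 gained one and 2 turned; of 792 with a mouse left out, 778 kept it, 13 lost it and 1 gained it. Both that turned were Pdp2 read by the mean of its 2 probes, at 0.53 with CL316243 in LWT and -0.80 between genotypes under CL316243. The bright Pdp2 probe was called in LWT with quantile normalization and the series table, and between genotypes under CL316243 with array weights.

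The number of members called with CL316243 in LWT was 5 with the mean of all probes, and in LKO 3 with only the 12 arrays compared; under vehicle it was 0 to 1 with a mouse left out, at 0 without LWT vehicle mouse 1 or 4. Over all probes, the interaction gave 1908 calls, 1094 with no filter on dim probes, 1123 with adjustment over 1 probe per gene and 3563 with array weights. Genotype under vehicle gave 356, 228 with no filter and 1096 with array weights; genotype under CL316243 gave 4928 and 3228 with only 12 arrays; CL316243 in LKO gave 13125 and 8550 over 1 probe per gene. A replicate block gave 12292, 13298, 2036, 381 and 5183 calls over the 5 comparisons and left the numbers of members called at 3, 6, 2, 1 and 3. With CL316243 in LWT, 6108 probes were called higher and 5942 lower in the main fit. With normexp background correction these were 6459 and 5389, so that 54.5% of the called probes were higher. With quantile normalization they were 5640 and 6524, or 46.4% higher. The cause of these shifts was not tested. Few arrays and dim probes (Pdk3, Pdp1) limit precision.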
